A study of Mus musculus with 4 samples.

Results

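The genes described here encode the NF-κB transcription factor subunits and proteins that regulate them. The subunit genes are Nfkb1, Nfkb2, Rel, Rela and Relb. Nfkbia, Nfkbie, Nfkbiz, Bcl3 and Tnfaip3 are grouped as inhibitors and brakes, although the Bcl3 protein can also turn dimers into activators. These genes were picked by symbol from a deposited expression table of 14226 rows, where all 10 were found in 11 rows, since Rel has 2. RNA of splenocytes, the mixed cells released from a mouse spleen, had been sequenced. The 2 vcS5 libraries came from transgenic C57BL/6N mice whose genotype is written vcS5 +/T, and both of these libraries carry the same line designation. The 2 wild-type (wt) libraries came from C57BL/6N mice without the transgene. The series title ties the transgene to an activating mutation in STAT5, the factor that carries cytokine signals to the nucleus, and to peripheral T cell lymphoma. The animals' age and the promoter that drives the transgene are not given in the sources used here. The comparison asks how the spleen transcriptome of vcS5 mice differs from that of wt mice.

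NF-κB proteins are dimers of Rel family subunits that wait in the cytoplasm bound to inhibitors of the IκB family. Signals from antigen receptors, TNF family receptors or Toll-like receptors switch on the IKK kinases, which mark the inhibitor for destruction and free the dimer to enter the nucleus. In the classical route Rela, Rel and the product of Nfkb1 act within minutes, while the alternative route, fed by receptors such as CD40 and the BAFF receptor, processes the Nfkb2 precursor to act with Relb. Several inhibitors are themselves NF-κB targets, which gives the system negative feedback. The family is best known in B cells, where it was discovered, and is needed for mature B cells to survive and for T cells to be activated.

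Level is given in FPKM, which scales reads to transcript length and library size, so that levels of different genes can be set side by side. The absolute number of reads is unknown from these values, and median FPKM over all rows was 12.22 and 12.58 in the vcS5 libraries, against 12.16 and 12.49 in the wt libraries. Stat5a averaged 114 ± 12.6 FPKM in vcS5 and 15.4 ± 2.23 FPKM in wt (SD, n = 2 each), so the libraries labelled vcS5 carry the higher Stat5a level. Defining markers of spleen lymphocytes were present in all 4 libraries. The 10 B cell markers summed to 1423 and 1369 FPKM in vcS5, against 3383 and 4086 FPKM in wt. The 10 T cell markers summed to 2294 and 3066 FPKM in vcS5, against 843 and 1146 FPKM in wt. Of the other markers, 8 neutrophil genes summed to 1011 and 973 FPKM in vcS5, against 6170 FPKM in wt replicate 1 and 1871 FPKM in wt replicate 2. The wt libraries thus differed from each other in the summed level of these markers. In bulk tissue, fewer cells of a type and less RNA per cell cannot be told apart.

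Promoter sequence was read from RefSeq windows on GRCm38.p6, which reach from 250 bases before each transcript start to 50 bases after it. Such windows were given for 7 of the 10 genes. Nfkb1, Relb and Nfkbiz had none. The windows were searched on both strands for the 10-base κB consensus that Rel family dimers bind, and for TTCNNNGAA, the core motif of STAT factors. A κB match was found in 6 of the 7 genes and in 9.55% of all genes with a window, counting a gene with any matching window. A TTCNNNGAA match was found in 1 of the 7, Nfkb2, and likewise in 9.55% of all genes. These matches are letters in a window and were not measured as binding sites. The 4 genes that fell in vcS5 are shown first below, then Nfkbia, with the κB match in capitals within 30 bases on the strand of the gene, since NF-κB genes are known to be targets of NF-κB themselves:
Bcl3 (chr7:19822734-19822763, minus strand): tcggcggcagGGGAAGTCCCgctgcccggc
Nfkb2 (chr19:46304688-46304717, plus strand): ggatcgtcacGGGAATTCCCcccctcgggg
Rel (chr11:23771042-23771071, minus strand): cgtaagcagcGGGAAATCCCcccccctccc
Nfkbie (chr17:45555584-45555613, plus strand): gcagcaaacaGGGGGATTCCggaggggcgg
Nfkbia (chr12:55492657-55492686, minus strand): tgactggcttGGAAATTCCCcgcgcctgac
The Nfkb2 and Rel stretches each hold a second κB match that overlaps the first by all but 1 base. Nfkb2 has 3 windows, which hold further κB matches, and the stretch shown is from the first of them along the chromosome. The matches shown begin 39 bases before the start in Nfkb2, 92 in Rel, 106 in Nfkbie and 29 in Nfkbia. That of Bcl3 begins at base 3 of the transcript.

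Rela, whose level differed little between the groups, held no κB match in its window, and its 250 bases before the start are shown here:
Rela (chr19:5637291-5637540, plus strand): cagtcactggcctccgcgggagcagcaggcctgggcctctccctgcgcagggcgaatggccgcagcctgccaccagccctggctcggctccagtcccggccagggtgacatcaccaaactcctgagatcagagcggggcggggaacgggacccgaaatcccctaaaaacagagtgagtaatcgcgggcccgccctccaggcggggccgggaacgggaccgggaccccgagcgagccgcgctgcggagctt
Tnfaip3, which did not pass the test either, held 2 κB matches in 1 of its 2 windows. Nfkbia, shown above, also held a match and did not pass. Rela was the only gene of the 7 without a match, and a link between matches and levels was not tested.

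Expression of NF-κB genes was lower in vcS5 than in wt spleens for 4 of the 10, Bcl3, Nfkb2, Rel and Nfkbie, and higher for none, by limma on log2(FPKM + 1) at an adjusted p under 0.05. Over all rows, 8.72% passed the same test, 4.13% as lower and 4.59% as higher. The remaining 6 did not pass, although 7 of the 10, all lower in vcS5, had an unadjusted p under 0.05, against 25.3% of all rows, 13.1% as lower. The median log2 change was -0.56 over the 10 genes and 0.001 over all rows. Both vcS5 libraries lay below both wt libraries for 8 of the 10 genes, an order found in 27.5% of all rows. In the authors' deposited table, 6 of the 10 were lower at a q under 0.05, against 6.14% of all rows. Leaving out any 1 library left 0 of the 10 past the adjusted threshold by limma. At an unadjusted p under 0.05 there were then 4 of the 10 without vcS5 replicate 1 (20.5% of all rows), 6 without vcS5 replicate 2 (17.9%), 6 without wt replicate 1 (19.0%) and 4 without wt replicate 2 (19.4%).

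**Figure D1:**
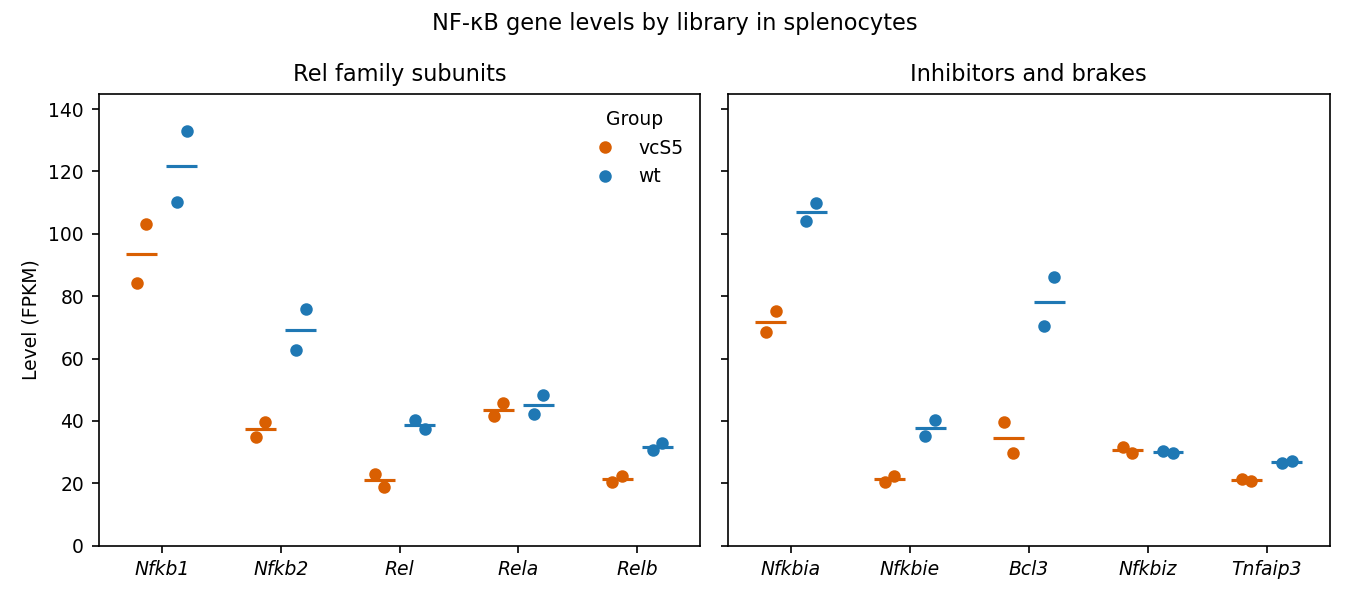
Level of each NF-κB gene in FPKM on the vertical axis, with 1 point per library, vcS5 in orange and wt in blue, and a line at each group's mean of 2 libraries. The vcS5 points lie below the wt points for 8 of the 10 genes, while Rela and Nfkbiz have overlapping groups.

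Among the subunits, Nfkb2 and Rel fell and Rela differed least between the groups. Nfkb2 (chromosome 19, 46304320 to 46312385, plus strand, mm10) encodes the precursor that is processed in the alternative route. It had 34.9 and 39.8 FPKM in vcS5, against 62.7 and 75.8 FPKM in wt. Both vcS5 libraries were low, and the groups did not overlap. The means were 37.3 ± 3.47 FPKM in vcS5 and 69.2 ± 9.27 FPKM in wt (SD, n = 2 each). On the log2 scale Nfkb2 changed by -0.87 with an SE of 0.162 and an adjusted p of 0.0381 by limma. Psd, a gene on the opposite strand whose end overlaps that of Nfkb2, had a log2 change of -0.71 (adjusted p = 0.0403 by limma), and the library kit does not mark strand.

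Rel (chromosome 11, 23736847 to 23770970, minus strand) encodes c-Rel, the subunit found mainly in lymphoid and myeloid cells. Its main row had 23.0 and 18.8 FPKM in vcS5, against 40.3 and 37.3 FPKM in wt. The groups did not overlap, and the adjusted p of the log2 change, -0.86 with an SE of 0.156, was 0.0354 by limma. A further Rel row at the same locus had 2.87 and 1.64 FPKM in vcS5 and 5.47 and 4.42 FPKM in wt, with a log2 change of -0.89 that did not pass (adjusted p = 0.1 by limma). Another row there, without a symbol, differed from the main Rel row by -1.84% and -0.714% in vcS5 and by 1.06% and -0.593% in wt. How reads were divided among these 3 rows is uncertain, so the level of Rel is less certain than its direction.

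Relb, the partner of the processed Nfkb2 product, lies on chromosome 7 (19606217 to 19629438, minus strand). It had 20.4 and 22.2 FPKM in vcS5, against 30.6 and 32.8 FPKM in wt. The groups did not overlap, but the log2 change of -0.55 (SE 0.135) had an adjusted p of 0.0731 by limma. In the authors' deposited table Relb had a log2 fold change of -0.58 with a q of 0.0272.

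Nfkb1, which encodes the most common partner of Rela, lies on chromosome 3 (135584655 to 135691547, minus strand). It was the most abundant of the 10 in both groups, with 84.1 and 103 FPKM in vcS5, against 110.2 and 133 FPKM in wt. The gap between the highest vcS5 and the lowest wt library was smaller than the gap between libraries of a group, and the log2 change, -0.38 with an SE of 0.179, did not pass (adjusted p = 0.269 by limma). Rela, the main transactivating subunit (chromosome 19, 5637483 to 5648130, plus strand), had 41.7 and 45.6 FPKM in vcS5, against 42.2 and 48.3 FPKM in wt. Its groups overlapped, and it differed by -0.05 on the log2 scale (SE 0.144, adjusted p = 0.878 by limma).

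**Figure D2:**
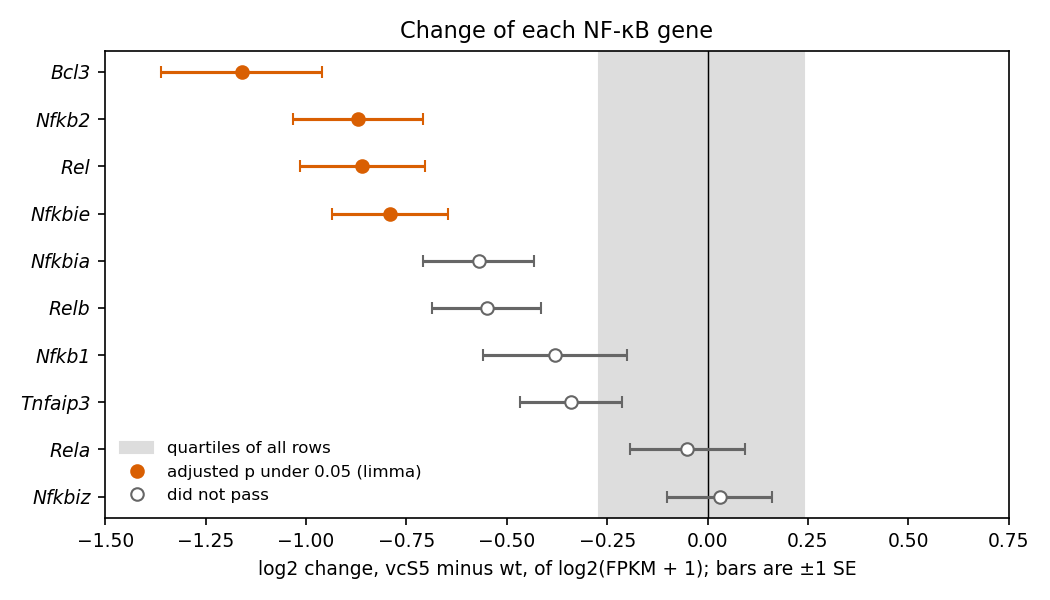
The log2 change of each gene, vcS5 minus wt, on the horizontal axis with bars of 1 SE by limma. Genes with an adjusted p under 0.05 are in orange. Bcl3, Nfkb2, Rel and Nfkbie lie between -1.16 and -0.79, outside the grey band from -0.27 to 0.24 between the quartiles of all rows, and Rela and Nfkbiz lie inside it.

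The make-up of the Rel family transcripts was described by each subunit's share. Summed FPKM of the 5 subunits was 204 and 229 in vcS5, against 286 and 327 in wt. The share of Rela in that sum was 20.4% and 19.9% in vcS5, against 14.8% and 14.7% in wt. The share of Nfkb2 was 17.1% and 17.4% in vcS5, against 21.9% and 23.2% in wt. Both shares separated the groups by more than they varied within one. The share of Nfkb1 was 41.2% and 44.8% in vcS5, against 38.5% and 40.7% in wt, and that of Relb averaged 9.84% in vcS5 and 10.4% in wt. Rel took 11.3% and 8.23% in vcS5, against 14.1% and 11.4% in wt. The Relb and Rel shares of the groups lay close together.

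Ratios between pairs of genes, which do not depend on library scaling, were compared as well. Nfkb2 over Nfkb1 was 0.414 and 0.388 in vcS5, against 0.569 in each wt library. Relb over Rela was 0.489 and 0.487 in vcS5, against 0.725 and 0.679 in wt. Rel over Rela was 0.552 and 0.413 in vcS5, against 0.953 and 0.772 in wt. None of the 3 ratios overlapped between the groups, and how often ratios of other gene pairs do so was not tested. Rela averaged 43.6 FPKM in vcS5 and 45.3 FPKM in wt, so the ratios over Rela largely restate the lower levels of Relb and Rel. An exact two-sided permutation test of 2 against 2 libraries cannot give a p below 0.333, which is what each of these shares and ratios gave.

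**Figure D3:**
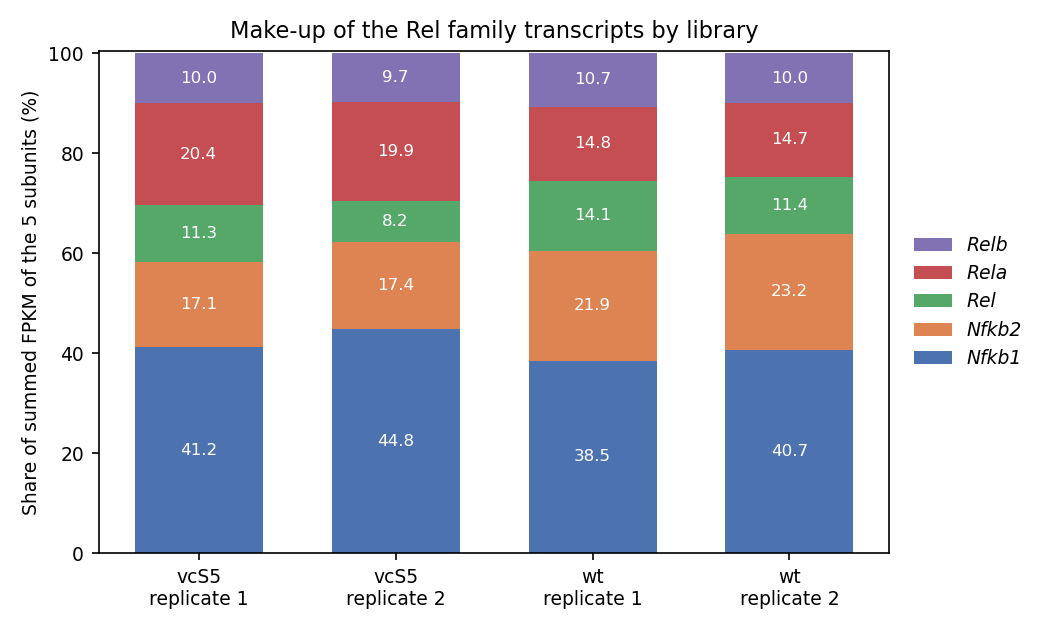
Share of each subunit, in percent, in the summed FPKM of the 5 Rel family genes, 1 bar per library. The Rela part is larger in both vcS5 libraries (20.4% and 19.9%) than in the wt libraries (14.8% and 14.7%), and the Nfkb2 part is smaller.

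In the group of inhibitors and brakes, Bcl3 and Nfkbie fell, and Nfkbia, Tnfaip3 and Nfkbiz did not pass the test. Bcl3 (chromosome 7, 19808462 to 19822770, minus strand) encodes a nuclear IκB protein that binds dimers of the Nfkb1 or Nfkb2 products and can turn them into activators. It had 39.5 and 29.6 FPKM in vcS5, against 70.3 and 86.2 FPKM in wt, the furthest change among the 10 genes. The mean in vcS5 was 0.441 of that in wt, and its groups did not overlap. On the log2 scale it changed by -1.16, with an SE of 0.2 and an adjusted p of 0.0321 by limma. With the replicate number as a block, its adjusted p was 0.067 by limma. Gm16174 and Gm16175, antisense transcripts inside the Bcl3 locus, were at 4.77 FPKM or less in vcS5 and 6.98 FPKM or less in wt.

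Nfkbie (chromosome 17, 45555703 to 45563169, plus strand) encodes IκB epsilon, a cytoplasmic inhibitor that is rebuilt after NF-κB activity. It had 20.5 and 22.3 FPKM in vcS5, against 35.3 and 40.3 FPKM in wt. The groups did not overlap, and Nfkbie changed by -0.79 on the log2 scale, with an SE of 0.144 and an adjusted p of 0.036 by limma. Nfkbia (chromosome 12, 55489410 to 55492647, minus strand) encodes IκB alpha, the fast feedback inhibitor. It had 68.4 and 75.3 FPKM in vcS5, against 104 and 109.9 FPKM in wt, and these groups did not overlap either. Its log2 change of -0.57 (SE 0.139) had an adjusted p of 0.0736 by limma, and in the authors' deposited table the log2 fold change was -0.57 with a q of 0.0192.

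Tnfaip3 (chromosome 10, 19000910 to 19015657, minus strand) encodes a ubiquitin-editing enzyme that shuts off signalling above the IKK kinases. It had 21.4 and 20.6 FPKM in vcS5, against 26.5 and 27.0 FPKM in wt. The libraries of a group lay close together and the groups apart, and the difference of -0.34 on the log2 scale (SE 0.128) had an adjusted p of 0.187 by limma. Nfkbiz (chromosome 16, 55811375 to 55838899, minus strand) encodes IκB zeta, another nuclear IκB protein and one induced by Toll-like and interleukin receptors. It had 31.7 and 29.6 FPKM in vcS5, against 30.4 and 29.6 FPKM in wt, with overlapping groups and a difference of 0.03 on the log2 scale (SE 0.13, adjusted p = 0.914 by limma). Bcl3 over Nfkbiz was 1.24 and 0.998 in vcS5, against 2.32 and 2.92 in wt (exact two-sided permutation p = 0.333, the smallest possible).

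The balance of cytoplasmic inhibitors to subunits was given as a ratio. Nfkbia and Nfkbie together amounted to 0.435 and 0.426 of the summed subunits in vcS5, against 0.486 and 0.459 in wt. The difference of -0.0416 compares with SDs of 0.00645 in vcS5 and 0.0196 in wt (exact two-sided permutation p = 0.333, the smallest possible). Against Rela alone, Nfkbia was at 1.64 and 1.65 in vcS5, against 2.46 and 2.28 in wt.

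The order of the levels differed between the groups. In vcS5, Nfkb1 and Nfkbia were followed by Rela at 43.6 ± 2.74 FPKM, Nfkb2 at 37.3 ± 3.47, Bcl3 at 34.5 ± 7.0 and Nfkbiz at 30.7 ± 1.49 FPKM. Nfkbie, Relb, Tnfaip3 and Rel came last in vcS5, between 20.9 and 21.4 FPKM, closer to each other than their SDs. In wt, Nfkb1 at 122 ± 16.3 and Nfkbia at 107 ± 4.29 FPKM were followed by Bcl3 at 78.3 ± 11.3, Nfkb2 at 69.2 ± 9.27 and Rela at 45.3 ± 4.28 FPKM (SD, n = 2). Rel and Nfkbie in wt, at 38.8 and 37.8 FPKM, lay within their SDs of each other, and Nfkb1 and Nfkbia lay within the SD of Nfkb1.

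Markers of cell types and genes sensitive to handling differed between the same libraries. Markers are counted as lower or higher at an adjusted p under 0.05 by limma, which called 4.13% and 4.59% of all rows. Of 10 B cell markers, 9 were lower and 0 higher. Their median log2 change was -1.4, a larger change than that of any of the 10 NF-κB genes. Of 10 T cell markers, 6 were higher and 0 lower, with a median of 1.32. Of 8 neutrophil markers, 1 passed as lower, with a median of -1.74. Of 9 macrophage markers 1 passed as lower, with a median of -0.46, and of 5 dendritic cell markers 1, with a median of -0.49. Every measured marker in these lists had a log2 change below 0, the highest being -1.04, -0.09 and -0.19 in that order. All 8 neutrophil, 2 macrophage and 2 dendritic cell markers had an unadjusted p under 0.05 by limma, against 25.3% of all rows. Of 11 immediate early genes, which rise quickly when tissue is handled and also on receptor signals, 7 were lower and 0 higher, with a median of -0.98. Both CD8 T cell markers were higher, with a median of 2.82, and 2 of 3 CD4 T cell markers were lower, with a median of -0.81. Natural killer markers were split, with 1 of 4 higher and 1 lower, and of 4 erythroid markers none passed by limma or had an unadjusted p under 0.05. Of 5 markers of stroma and endothelium only Pecam1 had a row, and all 10 B cell and all 10 T cell markers had one. The immediate early genes summed to 593 and 498 FPKM in vcS5, against 942 and 994 FPKM in wt. The part of any of these in the change of the NF-κB genes was not tested.

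The rest of the pathway was described with 9 lists of 95 genes, of which 85 were measured. Of the 85, 12 fell and 8 rose, which is 14.1% and 9.41%, against 4.13% and 4.59% of all rows, and their median log2 change was -0.17. Calls were thus split in direction. Of 16 named below that passed, 0 held by limma without vcS5 replicate 1 or without vcS5 replicate 2, Tnfsf8 held without wt replicate 1, and Tnfsf8 and Prkcq held without wt replicate 2. Of the other 3 IκB family genes none passed by limma, and 1 had an unadjusted p under 0.05, against 25.3% of all rows. That was Nfkbid, a nuclear IκB gene, with 35.0 and 33.8 FPKM in vcS5 and 49.6 and 53.9 FPKM in wt (adjusted p = 0.0636 by limma). Nfkbib, IκB beta, had 21.3 and 26.5 FPKM in vcS5 and 25.9 and 36.1 FPKM in wt, with overlapping groups.

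Among TNF family receptors, 3 of 12 measured genes fell and 1 rose, against 4.13% and 4.59% of all rows. Their median log2 change was -0.07, and 5 of the 12 had an unadjusted p under 0.05 by limma, against 25.3% of all rows. Those that fell were Tnfrsf13c, the BAFF receptor of B cells, at 45.1 and 49.1 FPKM in vcS5 against 97.4 and 138 FPKM in wt, Cd40, with a log2 change of -1.15, and Tnfrsf13b, at -1.12. With the replicate block the adjusted p of Cd40 was 0.0546 by limma. These 3 are receptors of B cells, and Tnfrsf13c and Cd40 feed the alternative route in which Nfkb2 and Relb act. Cd27, a costimulatory receptor of T cells, rose, with 161 and 198 FPKM in vcS5 against 65.6 and 82.5 FPKM in wt (log2 change 1.27, adjusted p = 0.0236 by limma).

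Among 11 measured ligands there were 3 rises and 2 falls, against 4.59% and 4.13% of all rows. The median log2 change of the ligands was -0.16, and 6 of the 11 had an unadjusted p under 0.05 by limma, against 25.3% of all rows. Tnfsf8, the CD30 ligand, had 50.5 and 54.5 FPKM in vcS5, against 11.8 and 7.53 FPKM in wt (log2 change 2.36, adjusted p = 0.00896 by limma). Tnfsf4, the OX40 ligand, rose at a low level, with 2.70 and 2.98 FPKM in vcS5 and 0.455 and 0.389 FPKM in wt. Its adjusted p of 0.0202 by limma was 0.0504 with the replicate block, under which 1 ligand in all rose. Cd40lg, by which CD4 T cells engage CD40 on B cells, fell, with 3.49 and 3.03 FPKM in vcS5 and 8.19 and 7.86 FPKM in wt. Il1b, an inflammatory cytokine of myeloid cells, also fell, by 1.12 on the log2 scale.

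**Figure D4:**
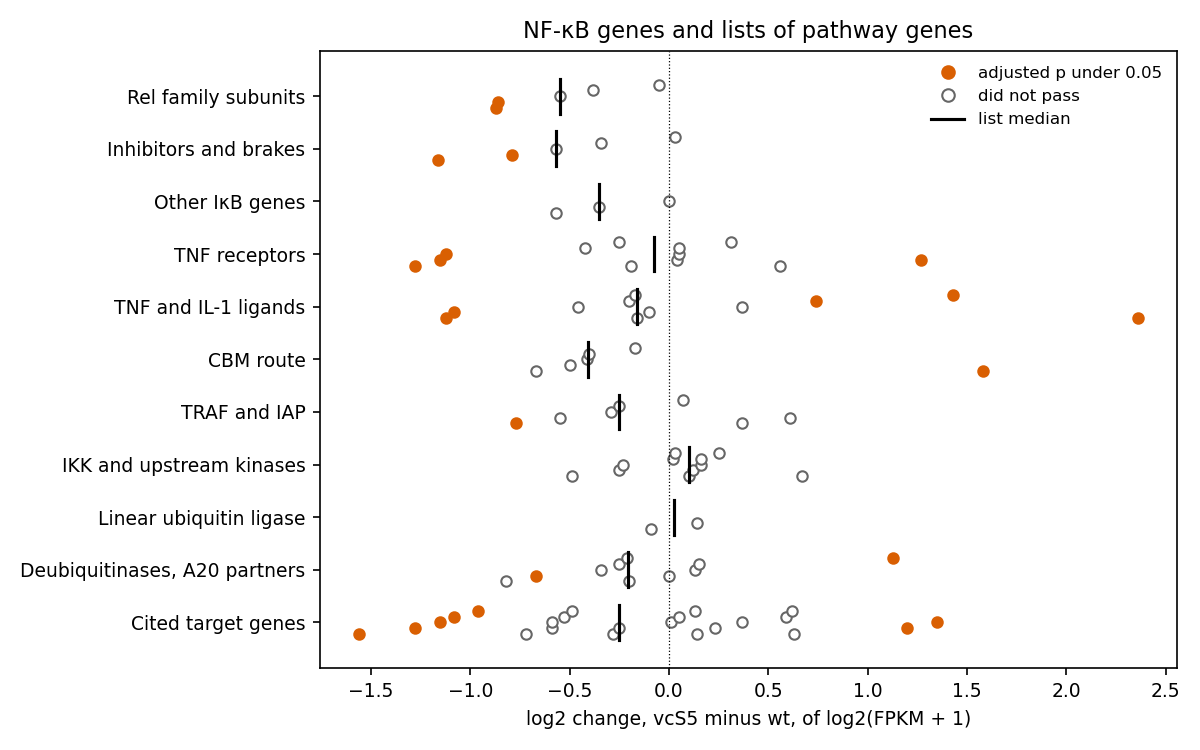
The log2 change of each measured gene, vcS5 minus wt, on the horizontal axis, 1 row per list, with genes past an adjusted p of 0.05 in orange and a black line at the list median. The calls among the NF-κB subunits and inhibitors all lie below 0, while receptors, ligands, cited target genes and the list of deubiquitinases and other brakes have calls on both sides, up to 2.36 for Tnfsf8.

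Between receptor and inhibitor, 2 of 26 measured genes passed, or 7.69%, close to the 8.72% of all rows. The lists differed at an unadjusted p under 0.05 by limma. It was met by 4 of 7 TRAF and IAP adaptors and 4 of 6 genes that link antigen receptors to IKK, against 25.3% of all rows. None of 11 IKK and upstream kinase genes passed by limma, 1 had an unadjusted p under 0.05, against 25.3% of all rows, and the median log2 change was 0.10. That was Ikbke, an IKK-related kinase gene, with 67.0 and 84.9 FPKM in vcS5 and 41.9 and 52.6 FPKM in wt (adjusted p = 0.106 by limma). With the replicate block Ikbke passed as higher, with an adjusted p of 0.0419 by limma. Map3k14, the kinase that drives Nfkb2 processing, had 16.6 and 18.4 FPKM in vcS5 and 21.0 and 29.6 FPKM in wt (adjusted p = 0.211 by limma). In the linear ubiquitin ligase, Rbck1 and Sharpin had log2 changes of 0.14 and -0.09 and 0 of 2 passed by limma, nor had either an unadjusted p under 0.05.

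Of the 6 genes that link antigen receptors to IKK, Prkcq rose and the other 5 did not pass. Prkcb, the protein kinase C form used by B cells, had a log2 change of -0.67 and an adjusted p of 0.0626 by limma. Chosen after its values were seen, Prkcb is named because it passed as lower with quantile normalization (0.0359), median scaling (0.0453) and the replicate block (0.0427). Prkcq, the protein kinase C form used by T cells, had 87.2 and 97.0 FPKM in vcS5, against 26.7 and 33.8 FPKM in wt (log2 change 1.58, adjusted p = 0.0113 by limma). Of 7 TRAF and IAP adaptors 1 fell, Birc3, which encodes a ubiquitin ligase and is itself a classical NF-κB target. Birc3 had 69.3 and 71.4 FPKM in vcS5 and 109 and 133 FPKM in wt, and its adjusted p of 0.0492 by limma was 0.052 with a pseudocount of 5.

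Among 10 deubiquitinases and other brakes, N4bp1 rose and Zc3h12a fell, where 4.59% of all rows rose and 4.13% fell. An unadjusted p under 0.05 by limma was found for 4 of the 10, against 25.3% of all rows. N4bp1, an inhibitor of NF-κB signalling, had 31.2 and 31.8 FPKM in vcS5 and 14.9 and 12.9 FPKM in wt. Zc3h12a, an RNase that degrades inflammatory mRNAs, had 18.8 and 18.2 FPKM in vcS5 and 28.5 and 31.4 FPKM in wt, with an adjusted p of 0.0469 by limma. With the replicate block that of Zc3h12a was 0.0566 by limma.

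Commonly cited NF-κB target genes went both ways as well. Of 23 measured, 5 fell and 2 rose, against 4.13% and 4.59% of all rows, with a median log2 change of -0.25. An unadjusted p under 0.05 by limma was found for 12 of the 23, against 25.3% of all rows. Ccl3, a chemokine gene, fell, with 10.9 and 8.11 FPKM in vcS5 and 33 and 26.7 FPKM in wt. Irf4, a transcription factor of activated lymphocytes and plasma cells, had 15.9 and 12.6 FPKM in vcS5 and 35.5 and 36.3 FPKM in wt. The genes that rose were Bcl2l1 and Ccnd2. Bcl2l1, which blocks apoptosis, had 24.3 and 36.7 FPKM in vcS5 against 9.83 and 12.5 FPKM in wt. Ccnd2, a cyclin of the G1 phase, had 90.8 and 92.2 FPKM in vcS5 against 41.1 and 37.6 FPKM in wt.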

How the data were processed

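The authors deposited FPKM for 4 unstranded TruSeq v2 libraries together with a log2 fold change, a p-value and a q-value of their own comparison, per the file headers and the labels' protocols. The submitters' processing notes name TopHat2 2.0.9, Bowtie2 2.1.0, Cufflinks, Cuffdiff 2.1.1 and the mm10 build without settings. The sources used here do not say how rows were selected for the table. Among low values, the most common ratio of wt replicate 1 to another library was 0.901 for vcS5 replicate 1, 0.829 for vcS5 replicate 2 and 0.847 for wt replicate 2, but it held only 5.73%, 4.04% and 5.14% of the low rows with a ratio near 1, so it is a weak guide to relative depth. Absolute depth is unknown, and no counting interval is given.

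Values were transformed as log2(FPKM + 1), which understates changes of low genes, and compared with limma 3.58.1 in R 4.3.3 with a variance trend, in a two-sided test of vcS5 against wt on 14226 rows. P-values were adjusted by Benjamini-Hochberg over all rows. A planned minimum mean of 1 FPKM removed no row. Where a symbol had several rows, the one with the highest mean was used. The series calls the replicates biological without naming the animals behind them. The p-values and SEs rest on the spread between 2 libraries a group, moderated by limma towards a variance trend over all rows. That prior had 3.17 degrees of freedom, against 2 residual ones of each row. An SE is thus not the spread of a row's own libraries alone. Gene coordinates are 1-based from GENCODE vM21 on GRCm38 (mm10).

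The genes and lists were chosen with earlier results of these data known. Pathway genes named are those past the threshold, at most 4 a list by size of change, or else the 2 with the smallest p. Alternatives changed the pseudocount, filter, scaling, variance model, block or libraries used. The fit of vcS5 against wt was tested on simulated data in 20 runs that each altered 200 of 14226 rows, drawn from rows averaging at least 5 FPKM, with normal errors of the fitted variance. Recovery was 3.7% at 1.5-fold, 62.7% at 2-fold and 98.7% at 4-fold, and unchanged rows made up 8.33% of calls. In the data 1241 rows passed, so the Benjamini-Hochberg cut-off on the p-value was not the same. These rates may therefore not carry over to the data.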

Additional observations from a re-analysis of the deposited data

How the results depend on the processing

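Of the 10 NF-κB genes, Rel and Nfkbie kept their call under both other pseudocounts and a minimum mean of 5 FPKM. They also kept it under both other scalings, no variance trend and the replicate block. Dropping the filter repeated the main fit, since it had removed no row. Without the variance trend the adjusted p by limma was 0.0478 for Rel and 0.0499 for Nfkbie, close to the threshold. Nfkb2 then had a log2 change of -0.87 and an adjusted p of 0.0508 by limma. With quantile normalization Nfkbia passed at -0.59 (adjusted p = 0.0481 by limma), and in the authors' deposited table Nfkbia at -0.57 and Relb at -0.58 passed at a q under 0.05. With the replicate number as a block Bcl3 had -1.16 (adjusted p = 0.067 by limma), and 3 of the 10 genes and 1028 of all rows passed, against 4 and 1241 without it. The replicate numbers are shared by label only, and deviations of same-numbered libraries from their group means correlated at 0.176 across rows.

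With each library left out in turn, which assumes that a lone library varies like the other group, 71 to 245 rows and in each case 0 of the 10 genes passed by limma, with 4 to 6 of them at an unadjusted p under 0.05, against 17.9% to 20.5% of all rows. The log2 change then ran from -1.37 to -0.96 for Bcl3, from -1.01 to -0.74 for Nfkb2, from -1.0 to -0.73 for Rel and from -0.88 to -0.70 for Nfkbie, with adjusted p from 0.0897 to 0.173 by limma. Rela, between -0.14 and 0.04, turned to 0.01 without vcS5 replicate 1 and to 0.04 without wt replicate 2. Nfkbiz, between -0.02 and 0.08, turned to -0.02 without vcS5 replicate 1, and Rbck1, up to 0.36, to -0.07 without wt replicate 1. Of the pathway genes that passed, Birc3 missed the threshold with a pseudocount of 5, when rows below a mean of 5 FPKM were removed and without the variance trend. Without that trend Zc3h12a (adjusted p = 0.0626 by limma) and Tnfsf14 (0.0503) also missed it. With the replicate block Zc3h12a (0.0566), Cd40 (0.0546), Tnfsf4 (0.0504), Tnfsf14 (0.0599) and Ptgs2 (0.0778) missed it, and Ikbke (0.0419), Prkcb (0.0427), Traf1 (0.0459) and Myc (0.0485) passed by limma. With quantile normalization and with median scaling Prkcb and Ebi3 passed. The cause of these differences was not tested. The fits with fewer libraries and the fit with the replicate block each leave 1 residual degree of freedom. With 2 libraries a group, changes below about 2-fold were poorly resolved in the simulated data.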
